A study of Mus musculus with 6 samples.

Results

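The genes described here are 46 mouse genes that mark endothelial cells, the lining of blood and lymph vessels, or that steer the growth and patterning of vessels. They were taken as a fixed list of gene symbols and not by a cut on their values, though earlier results of these data were known. All 46 were in the table of 45777 genes, and all 46 reached the mean of 10 counts required for a test, which 18328 genes passed. Whole hearts were taken from BALB/c nude mice (CAnN.Cg-Foxn1nu/Crl), a strain without a thymus. Their age is given as 6 weeks, and the study started treatment at 7 weeks of age, so the hearts came from older mice. Every mouse, Controls included, carried a subcutaneous tumour of MDA-MB-231, a human breast cancer cell line. Treatment began 7 days after the tumour cells were given and lasted 3 weeks. The 6 groups were Control, ginsenoside Rh2 at 20 mg/kg (Rh2-20), Rh2 at 30 mg/kg (Rh2-30), doxorubicin at 2 mg/kg (Dox, 22 mg/kg in total, given every other day), Rh2-20 + Dox and Rh2-30 + Dox. Rh2, a saponin of ginseng, was injected daily. Dox is an anthracycline chemotherapy drug that can injure the heart. Each group was 1 library made from the pooled RNA of 5 hearts, so the spread between mice of a group was not measured. The comparisons ask how the transcripts of vessel cells in the heart differed with Dox, with Rh2 and with both.

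Endothelial cells are held together by junction proteins such as VE-cadherin (Cdh5) and PECAM1. They take growth signals from VEGF through the receptors VEGFR2 (Kdr) and VEGFR1 (Flt1), from angiopoietins through TIE2 (Tek), and from apelin through APJ (Aplnr). Notch signalling, read out by the repressors Hey1 and Hey2, favours arterial over venous fate. The myocardium has one of the densest capillary beds of the body, and endothelial cells are a large part of its non-muscle cells.

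The libraries held 86164411 to 90621002 counts, and member counts ran from 10 to 57602 in a library. Values below are counts scaled by TMM, a normalisation on the bulk of genes, and are called normalised counts. They are always listed in the order Control, Rh2-20, Rh2-30, Dox, Rh2-20 + Dox, Rh2-30 + Dox. Levels of marker genes of atrium, fat and platelets differed between libraries, and the amount of each tissue was not measured. The summed level of 4 atrial genes (Myl7, Sln, Nppa, Myl4) was 45.7, 62, 1662, 378.6, 402.7 and 75.3 CPM (counts scaled to library size), and that of 4 fat genes ran from 0.288 in Rh2-30 + Dox to 136.3 in Rh2-30. The summed level of 6 platelet genes was 101.4 in Dox and 150.0 in Rh2-20 + Dox, against 13.7 to 31.6 elsewhere. These values are given beside some of the results below, and their part in them was not tested.

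The defining endothelial markers were well expressed in every library, with Pecam1 at 58 to 83.8 and Cdh5 at 38.9 to 55.6 fragments per length (FPKM). Of the 46 genes, 22 had a mean of at least 10 FPKM (fragments per kilobase of transcript and library size, the level per transcript length), 21 lay from 1 to 10 and 3 were under 1. Egfl7, a secreted vessel matrix protein, led with a mean FPKM of 113, followed by Kdr at 79.5, Pecam1 at 71.2 and the sialomucin gene Emcn at 70.6. The lowest were Apln at 0.12, Sele at 0.506 and Selp at 0.712. A typical member varied about as much as a typical gene. The median distance between the lowest and highest library was 0.57 on the log2 scale, beside 0.61 over all genes tested, many of which had fewer counts. The distance was under 0.5 for 19 of the 46 members, beside 39.2% of all genes. It was from 0.5 to 1 for 16 members, and 1 or more for 11.

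**Figure D1:**
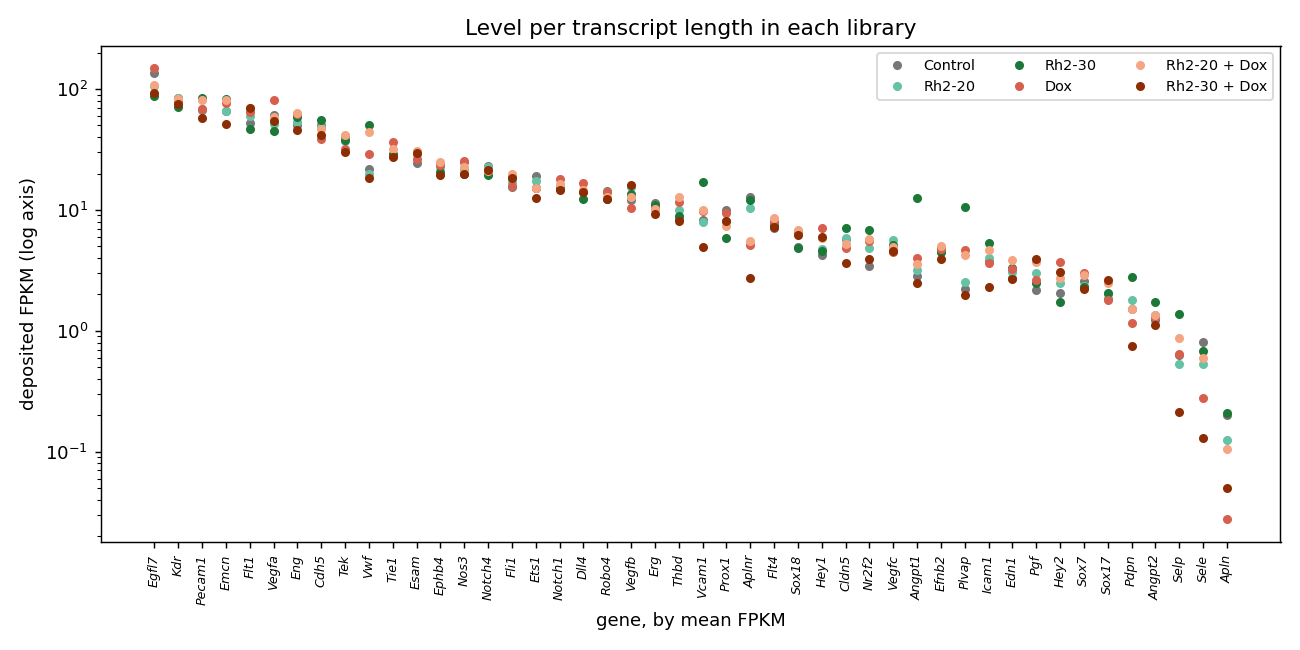
Deposited FPKM (log axis) of the 46 genes, ordered by their mean, with 1 point for each of the 6 libraries. Egfl7 is at the left with a mean of 113 and Apln at the right with 0.12, and the points of Plvap, Angpt1, Aplnr, Sele and Selp spread more widely than those of Kdr or Pecam1.

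The 3 libraries with Dox were compared with the 3 without across Rh2 doses, and the 4 libraries with Rh2 with the 2 without at the same Dox state, both by edgeR's quasi-likelihood test with adjustment over all genes tested. Single libraries were compared by their ratio with no test, and a gene was called at a fold of 2. A ratio has a counting interval and a wider interval that adds the common dispersion between libraries, typically 0.67 to either side on the log2 scale. Since 20 of the 46 genes overlap another annotated gene and the handling of strand in the counting is not given in the sources used here, reads of those genes may in part belong to a neighbour. Fewer endothelial cells and less RNA per endothelial cell cannot be told apart in whole heart RNA.

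No member passed an adjusted p of 0.05 for Dox, beside 0.0273% of all genes (5 genes) in edgeR's quasi-likelihood test. At an unadjusted p under 0.05, 3 members were higher with Dox, beside 4.2% of all genes, and 5 were lower, beside 5.91%. limma on log2(FPKM + 1) called 0 members and DESeq2's Wald test called 2, Aplnr and Hey1, among 425 of all genes. The 3 Dox libraries lay all above the other 3 for 4 members (Flt1, Sox18, Hey1, Hey2), beside 7.85% of all genes. They lay all below for 5 members (Cdh5, Cldn5, Apln, Aplnr, Pdpn), beside 9.16%. Neither count is far from the share over all genes, and the list is not set apart by them. A comparison of 3 values with 3 cannot go below an exact two-sided permutation p of 0.1. The median log2 difference over the members was 0.05, beside -0.01 over all genes.

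**Figure D2:**
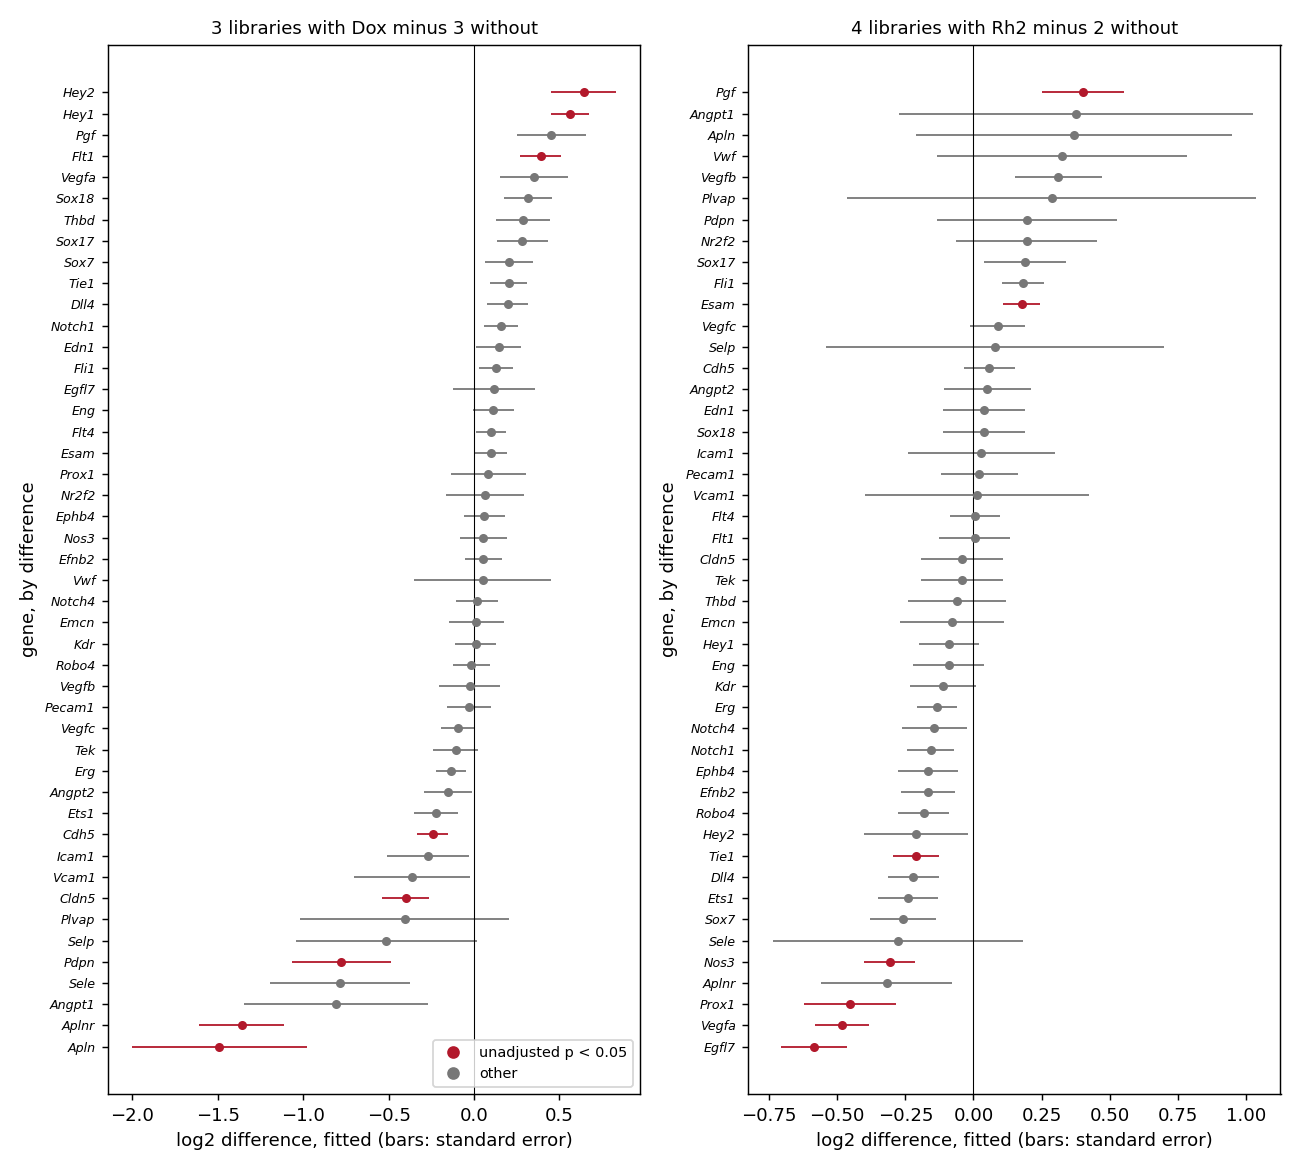
Fitted log2 difference of each of the 46 genes, ordered by size, for Dox (left, 3 libraries minus 3) and for Rh2 (right, 4 libraries minus 2 with the Dox state as a term). Bars are 1 standard error and red marks an unadjusted p under 0.05: Aplnr and Apln are at the bottom for Dox with Hey2 and Hey1 at the top, and Egfl7 and Vegfa are at the bottom for Rh2.

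Pecam1, a junction adhesion protein, was close to level, at 26621, 25344, 29773, 26744, 30310 and 22948 normalised counts. Its mean was 26667 ± 3681 (SD, n = 3) with Dox and 27246 ± 2279 (SD, n = 3) without, and the groups overlapped. Cdh5, the adhesive core of the endothelial junction, was at 23777, 22134, 23918, 18215, 21084 and 19792. Its 3 Dox libraries were all below the other 3, with a log2 difference of -0.24 (SE 0.091, edgeR adjusted p = 0.443). The claudin gene Cldn5 of tight junctions had the same order, from 625 to 834 with Dox and from 942 to 1085 without, at -0.40 (SE 0.14, edgeR adjusted p = 0.416). Neither passed. Further genes of this group were the TGF-beta co-receptor gene Eng, which ran from 19045 to 25400, Emcn from 8995 to 13414, the junction gene Esam from 5421 to 6628, the guidance receptor gene Robo4 from 5026 to 6334 and the anticoagulant receptor gene Thbd from 3579 to 5378. None of these 5 had separate Dox libraries, and Vwf, Plvap, Egfl7 and Nos3 of the same group are described further on. The summed level of the 12 surface and junction genes was 1780, 1628, 1999, 1908, 2046 and 1498 CPM, lowest in Rh2-30 + Dox, with the Dox and other libraries overlapping.

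Among the receptors, Aplnr stood out. Aplnr, the apelin receptor at chr2:85136360-85139923 (mm10, GRCm38.p6), was at 5415, 4176, 4604, 2138, 2223 and 1170 normalised counts. Every library with Dox was below every library without, and Rh2-30 + Dox was the lowest. The means were 1843 ± 585 (SD, n = 3) and 4732 ± 630 (SD, n = 3), a log2 difference of -1.36 (SE 0.25). This did not pass in edgeR's quasi-likelihood test (adjusted p = 0.2), while DESeq2 gave an adjusted p of 7.22e-06. That Aplnr was lower in 3 of 3 Rh2 dose pairs follows from the groups not overlapping and adds no further support. Leaving out each library in turn kept the log2 difference between -1.52 and -1.12, with edgeR adjusted p from 0.0858 to 0.503. With the atrial level as a term the difference was -1.40 (adjusted p = 0.0966).

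Apln, the gene of the secreted peptide ligand of that receptor, is at chrX:48025146-48034853. It was scarce, at 76, 45, 72, 11, 39 and 19 normalised counts. Its 3 Dox libraries were also all below the other 3, with means of 22.8 ± 14.4 (SD, n = 3) and 64.5 ± 16.9 (SD, n = 3). The log2 difference was -1.49 (SE 0.51, edgeR adjusted p = 0.414), and without the Dox library it was -1.15. Against Control alone the Dox library was 6.98-fold lower, with a counting interval of -3.98 to -1.90 on the log2 scale. Ligand and receptor of the apelin pair thus lay on the same side, the receptor with far more counts behind it.

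The other receptors differed less. Kdr, the main signalling receptor for VEGF, was at 58770, 56587, 45012, 54061, 55104 and 52366 normalised counts, with Rh2-30 the lowest and the groups overlapping. Flt1, a VEGF receptor known to act largely as a decoy, was at 40832, 43673, 33181, 49048, 51584 and 53610. All 3 Dox libraries of Flt1 were above the other 3, with a log2 difference of 0.39 (SE 0.12, edgeR adjusted p = 0.369). Tie1, an orphan partner of TIE2, Tek and the lymphatic receptor gene Flt4 had Dox differences of 0.20, -0.11 and 0.10, all with overlapping groups.

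Hey1 and Hey2, repressors switched on by Notch, were higher with Dox. Hey1, at chr3:8663359-8667038, was at 1053, 1161, 1064, 1802, 1474 and 1563 normalised counts, a mean of 1613 ± 170 (SD, n = 3) against 1093 ± 59.3 (SD, n = 3). Hey2, at chr10:30832359-30842783, was at 624, 713, 474, 1096, 792 and 938, a mean of 942 ± 152 (SD, n = 3) against 604 ± 121 (SD, n = 3). Neither gene's groups overlapped, and the Dox library was the highest of both. The log2 differences were 0.56 (SE 0.11, edgeR adjusted p = 0.216) for Hey1 and 0.64 (SE 0.19, edgeR adjusted p = 0.349) for Hey2. By DESeq2 the adjusted p was 0.00172 for Hey1 and 0.079 for Hey2. Both genes overlap a predicted gene in the annotation.

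**Figure D3:**
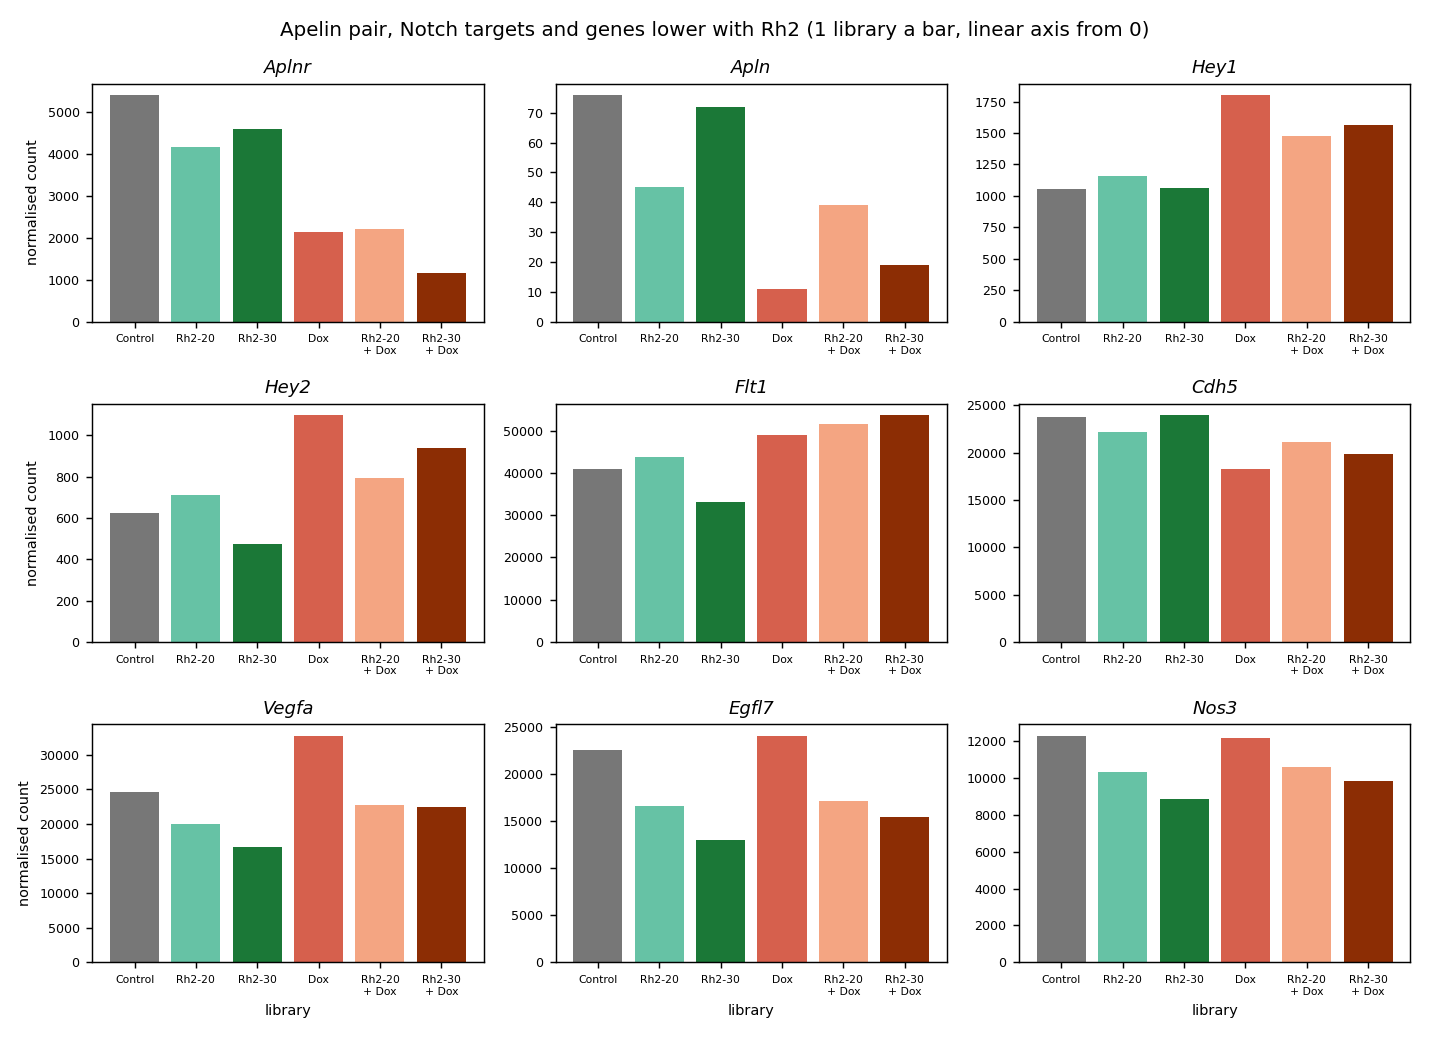
Normalised counts in each library (1 bar a library, axis from 0) for the apelin pair, the Notch targets, 2 further genes whose Dox and other libraries do not overlap and 3 genes lower in every Rh2 library. Aplnr lies between 1170 and 2223 in the Dox libraries and between 4176 and 5415 in the others, and Hey1 between 1474 and 1802 against 1053 to 1161.

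The other Notch and arteriovenous members did not share that pattern. The ligand gene Dll4, the receptor genes Notch1 and Notch4, the arterial ligand gene Efnb2, its venous receptor gene Ephb4 and the venous factor gene Nr2f2 had Dox differences from 0.02 to 0.20, with overlapping groups. Nr2f2 had the widest range of these, from 1715 in Control to 3109 in Rh2-30. Of 10 further arterial genes (among them the Notch targets Hes1 and Heyl), 1 had an unadjusted p under 0.05 for Dox, higher. Hes1 was at 1122, 880, 1205, 1233, 926 and 1064 and Heyl at 934, 890, 989, 1229, 888 and 751, both with overlap.

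The promoters of Apln, Hey2 and Pdpn were chosen after the values were seen, as the members with non-overlapping Dox libraries, a mean log2 difference of at least 0.5 in size and a RefSeq window. They are the 250 bases before the annotated start, from RefSeq on GRCm38.p6, read 5′ to 3′ on the strand of the gene, which is the minus strand in all 3. Windows were matched by symbol for 29 of the 46 members, and Aplnr and Hey1 had none. Capitals mark GGGCGG, the GC box bound by SP1, in Apln at chrX:48034854-48035103. They mark the reverse complement of TGGGAA, the core read by the Notch factor RBPJ, in Hey2 at chr10:30842784-30843033. They mark ACGTG, the hypoxia response core, read on both strands and overlapping itself, in Pdpn at chr4:143299565-143299814. A different run of letters was marked in each gene, and the Hey2 window also holds GGGCGG, left in lower case.
Apln: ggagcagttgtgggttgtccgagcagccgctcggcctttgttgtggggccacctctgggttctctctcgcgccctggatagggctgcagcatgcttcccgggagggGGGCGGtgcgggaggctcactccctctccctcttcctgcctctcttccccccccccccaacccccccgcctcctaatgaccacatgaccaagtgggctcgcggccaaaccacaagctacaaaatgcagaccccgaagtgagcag
Hey2: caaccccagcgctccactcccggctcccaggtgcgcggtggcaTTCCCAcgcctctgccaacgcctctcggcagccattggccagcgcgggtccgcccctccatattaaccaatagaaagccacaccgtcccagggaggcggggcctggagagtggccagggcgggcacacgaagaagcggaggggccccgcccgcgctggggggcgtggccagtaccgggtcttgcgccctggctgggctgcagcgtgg
Pdpn: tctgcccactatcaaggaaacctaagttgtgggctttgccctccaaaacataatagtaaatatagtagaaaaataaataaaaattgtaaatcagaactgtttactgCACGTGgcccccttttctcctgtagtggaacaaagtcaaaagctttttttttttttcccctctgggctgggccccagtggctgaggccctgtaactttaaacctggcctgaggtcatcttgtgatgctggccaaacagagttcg
The match begins 144 bases before the start in Apln, 207 in Hey2 and 144 in Pdpn. Searched on both strands, GGGCGG was in 32.7% of all 32851 windows, TGGGAA in 21.6% and ACGTG in 16.6%. Among the 29 members with a window the counts were 18, 8 and 2. A member was counted if any window under its symbol held the letters, while the percentages are of windows. Counts and percentages are thus not like measures, and no excess can be read from them. The 8 with TGGGAA were Kdr, Tie1, Egfl7, Erg, Vegfa, Hey2, Prox1 and Sele. A match is a run of letters and was not tested as a binding site.

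Of the lymphatic members, Pdpn, a surface glycoprotein of lymphatic endothelium that is also made by mesothelium and fibroblasts, was at 336, 377, 553, 254, 319 and 166 normalised counts. Its Dox libraries were all below the others and Rh2-30 was the highest. The log2 difference was -0.78 (SE 0.29, edgeR adjusted p = 0.443), and it was -0.53 without Rh2-30. The summed level of 4 mesothelial genes (Msln, Upk3b, Wt1, Lrrn4) was 31.6, 27.4, 45.7, 27.8, 34.3 and 22.0 CPM, with 3 of the 4 a fold of 2 higher in Rh2-30 than in Control and 3 of the 4 lower in Rh2-30 + Dox. That of 6 fibroblast genes was also highest in Rh2-30, at 2783, and lowest in Rh2-30 + Dox, at 1518. The part of either cell type in the Pdpn values was not tested. Prox1, the master factor of lymphatic fate and also active in heart muscle, was at 9476, 7290, 5069, 8747, 6610 and 7768, with no separation by Dox. Of 5 other lymphatic genes, 1 was higher (Mmrn1) and 1 lower (Thy1) at an unadjusted p under 0.05 for Dox. Lyve1, a hyaluronan receptor, was at 651, 1295, 1560, 1227, 1607 and 1043 and Mmrn1, a gene that platelets also make, at 1608, 2088, 2392, 4101, 5681 and 2699. The 6 platelet genes were also highest in Dox and Rh2-20 + Dox, and their part in the Mmrn1 values was not tested.

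Of the endothelial factors, Erg and Fli1 varied least, with 0.31 and 0.30 on the log2 scale between the lowest and highest library. For the other factors this distance was 0.51 to 0.58, near the median of 0.57 over the members. Erg and Fli1, ETS factors that hold endothelial identity, ran from 3476 to 4302 and from 5836 to 7175 normalised counts, and Ets1 from 7604 to 11398. Of the SoxF factors, Sox18 had all 3 Dox libraries (1210 to 1251) above the other 3 (850 to 1183), with a log2 difference of 0.32 (SE 0.14, edgeR adjusted p = 0.502). Sox7 ran from 812 to 1157 and Sox17 from 834 to 1216, with overlap. No factor had an unadjusted p under 0.05 for Dox or Rh2.

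Across Rh2, no member passed an adjusted p of 0.05, beside 0% of all genes (0 genes) in edgeR's quasi-likelihood test. At an unadjusted p under 0.05, 2 members were higher, Esam and Pgf, beside 4.09% of all genes, and 5 were lower, beside 4.65%. The 5 were Egfl7, Vegfa, Nos3, Prox1 and Tie1. Over all genes 1602 had an unadjusted p under 0.05. limma on log2(FPKM + 1) called 0 members, and DESeq2 called 2, Egfl7 and Vegfa, among 242 of all genes. All 4 libraries with Rh2 were above the library without Rh2 of the same Dox state for 5 members (Esam, Fli1, Vegfb, Vegfc, Pgf), beside 16% of all genes. They were all below it for 12 members, beside 16.2%. The 12 were Tie1, Nos3, Robo4, Egfl7, Sox7, Erg, Ets1, Vegfa, Dll4, Notch1, Efnb2 and Prox1. Without Rh2-30 the 2 counts were 6 and 14, beside 22% and 22.7% of all genes. They were 9 and 21 without Control, beside 33.9% and 36.3%, and 12 and 20 without Dox, beside 37.1% and 33.4%. The genes in the next paragraph were picked from these after their values were seen.

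Vegfa, the chief growth signal for vessels and made mostly by muscle and stromal cells, was at 24670, 19945, 16627, 32750, 22788 and 22455 normalised counts. In each Dox state the library without Rh2 was the highest, and the Dox library was the highest of all. The log2 difference with Rh2 was -0.48 (SE 0.10, edgeR adjusted p = 0.567), and it lay between -0.56 and -0.43 when each library was left out in turn. Egfl7 was at 22522, 16560, 13011, 24043, 17121 and 15421, with a log2 difference of -0.59 (SE 0.12, edgeR adjusted p = 0.567) and -0.50 without Rh2-30. Egfl7 is the host gene of Mir126a and Mir126b, whose hairpins lie within it. By DESeq2 the adjusted p was 0.00306 for Egfl7 and 0.00308 for Vegfa. Nos3, the endothelial nitric oxide synthase, was at 12275, 10290, 8841, 12183, 10593 and 9848, a log2 difference of -0.31 (SE 0.094, edgeR adjusted p = 0.567). In Vegfa, Egfl7 and Nos3 the library at 30 mg/kg was below that at 20 mg/kg in both Dox states. Each dose is 1 library in each Dox state, and this order was not tested.

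The other ligands did not lie together. Pgf, a VEGF relative that binds Flt1, was at 431, 571, 464, 512, 708 and 787 normalised counts and lay highest in the 2 combination libraries. Its log2 difference with Rh2 was 0.40 (SE 0.15, edgeR adjusted p = 0.568). Vegfb ran from 1493 to 2347, the lymphatic ligand gene Vegfc from 992 to 1199, the TIE2 antagonist gene Angpt2 from 473 to 667 and the vasoconstrictor gene Edn1 from 689 to 933. None of these 4 had an unadjusted p under 0.05 for Dox or for Rh2.

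The other genes of the same pathways were counted from lists that do not include the members. Of 17 further receptor and signalling genes, 2 were higher and 3 lower with Dox at an unadjusted p under 0.05, and 0 passed adjustment. The 2 with the largest differences were the lipase inhibitor gene Angptl4, at 477, 350, 860, 222, 180 and 136 normalised counts, and the ligand gene Bmp6, at 1885, 2382, 2880, 3599, 3686 and 3646. The VEGF co-receptor gene Nrp2, picked after its values were seen, was at 17642, 14872, 14600, 10112, 12012 and 9371 (log2 difference -0.58, SE 0.13, edgeR adjusted p = 0.245). Of 15 other endothelial surface genes 2 were higher and 4 lower, and of 15 other factors 2 were higher and 1 lower. The largest were Mmrn1 and Esm1 among the surface genes and Bcl6b and Gata2 among the factors. Bcl6b, a repressor enriched in endothelium, was at 4494, 3071, 3668, 3127, 1928 and 1589 and Gata2, a factor of blood and endothelium, at 1091, 1318, 1325, 2012, 1786 and 2009. With Rh2, the counts at an unadjusted p under 0.05 were 2 higher and 0 lower for receptors, 1 and 0 for surface genes and 1 and 1 for factors. Of 9 capillary genes, 3 were higher (Aqp1, Car4, Timp4) and 0 lower with Dox at an unadjusted p under 0.05. With Rh2, 4 were higher and 0 lower, and 0 passed adjustment for either. The 4 were Rgcc, Gpihbp1, Kcna5 and Timp4, of which Timp4 and Rgcc had the largest differences. The others had Rh2 differences of 0.37 (Aqp1), 0.19 (Car4), 0.06 (Fabp4), 0.03 (Cd36) and -0.03 (Lpl). The summed level of the 9 was 3294, 3258, 2850, 3010, 3213 and 3722 CPM, lowest in Rh2-30. Over all genes, 4.2% were higher and 5.91% lower with Dox at this cut, and 4.09% and 4.65% with Rh2. The log2 difference of Timp4 was 1.08 (SE 0.33) with Rh2 and 1.08 (SE 0.46) with Dox. Rgcc, a cell cycle regulator enriched in capillaries, was at 1081, 1730, 1901, 1253, 2004 and 2701 (log2 difference 0.83, SE 0.15). Gpihbp1, which carries lipoprotein lipase to the capillary lumen, was at 2666, 3361, 3496, 2711, 3698 and 4147 (log2 difference 0.45, SE 0.091).

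Single libraries against Control gave few calls among the members. In Rh2-20, 0 members were called higher and 0 lower, beside 3.35% and 2.8% of all genes. In Rh2-30, 3 were higher (Plvap, Vwf, Angpt1), beside 8.48%, and 0 lower, beside 1.63%. In Dox, 1 was higher (Plvap), beside 5.44%, and 3 lower (Aplnr, Apln, Sele), beside 3.58%. In Rh2-20 + Dox, 0 were higher, beside 5.13%, and 1 lower (Aplnr), beside 3.62%. In Rh2-30 + Dox, 0 were higher, beside 4.08%, and 5 lower (Aplnr, Apln, Pdpn, Sele, Selp), beside 6.85%. All 5 comparisons share the Control library. Against Dox, Rh2-20 + Dox had 1 higher (Apln), beside 3.08%, and 0 lower, beside 3.44%. Rh2-30 + Dox had 0 higher, beside 2.76%, and 3 lower (Plvap, Sele, Selp), beside 7.35%. In these 7 comparisons 38 of the 46 members were not called. The median log2 ratio of the members was -0.06, -0.06, 0.07, 0.07 and -0.17 against Control, and 0.03 and -0.24 against Dox.

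Dox was also compared at the same Rh2 dose. Between Rh2-20 + Dox and Rh2-20, 1 member was higher (Vwf), beside 4.09% of all genes, and 0 lower, beside 2.87%. Between Rh2-30 + Dox and Rh2-30, 0 were higher, beside 2.4%, and 10 lower, beside 12.1%. The 10 were Selp, Plvap, Angpt1, Aplnr, Apln, Sele, Pdpn, Vcam1, Vwf and Icam1. Vcam1 and Icam1 were called in no other comparison, at log2 ratios of -1.62 and -1.06, and 36 members were called in none of the 9. Rh2-30 was the library with the highest atrial and fat levels, and their part in this count was not tested.

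**Figure D4:**
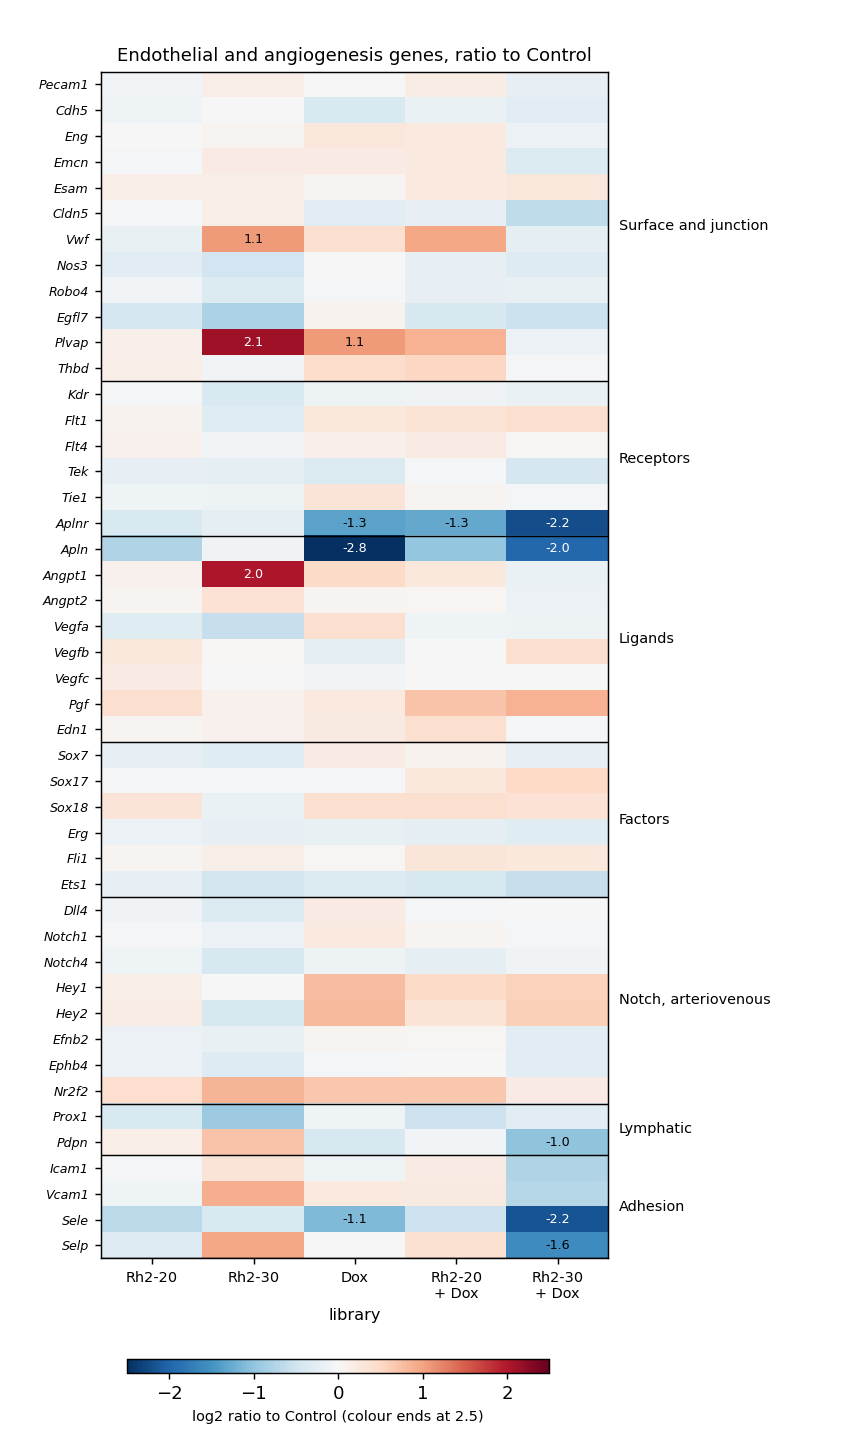
Log2 ratio to Control of the 46 genes (rows, by role) in the 5 treated libraries (columns), with the value printed where it is 1 or more in size and colour ending at 2.5. Most cells are pale, Aplnr is blue in all 3 Dox columns, Plvap and Angpt1 are red in Rh2-30, and the adhesion genes are blue in Rh2-30 + Dox.

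Plvap, the protein of the diaphragms of fenestrated endothelium, which also marks endocardium, was at 532, 578, 2300, 1116, 975 and 481 normalised counts. It was 4.32-fold higher in Rh2-30 than in Control, with a counting interval of 1.97 to 2.25 and an interval with the dispersion of 1.42 to 2.80 on the log2 scale. Angpt1, the agonist of TIE2, was at 1452, 1557, 5861, 2034, 1747 and 1288, and was 4.04-fold higher in Rh2-30. Vwf, the clotting factor carrier stored in endothelial granules and also found in platelets, was at 22902, 20087, 48182, 30198, 44629 and 19595. It lay above Control by a log2 ratio of 1.07 in Rh2-30 and was 1.95-fold higher in Rh2-20 + Dox. In these 3 genes Rh2-30 was the highest library and Rh2-30 + Dox the lowest.

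Marker genes of other tissue shared this order only in part. Npr3, an endocardial marker, was at 2280, 2033, 9315, 4253, 5383 and 3196 normalised counts, and the atrial gene Myl7 at 59, 1166, 49348, 9614, 10245 and 19. Both were highest in Rh2-30, but Npr3 was lowest in Rh2-20 and Myl7 in Rh2-30 + Dox. All 4 atrial genes and all 4 fat genes passed a fold of 2 in Rh2-30 against Control, with the fat genes Adipoq at 3467 and Ucp1 at 6010 in that library. The platelet gene Itga2b was at 527, 421, 993, 3528, 4974 and 488, highest in Rh2-20 + Dox. The part of atrial, endocardial, fat and platelet RNA in the Plvap, Angpt1 and Vwf values was not tested. Without Rh2-30 the fitted Dox difference of Plvap turned from -0.41 to 0.64 and that of Angpt1 from -0.81 to 0.18.

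**Figure D5:**
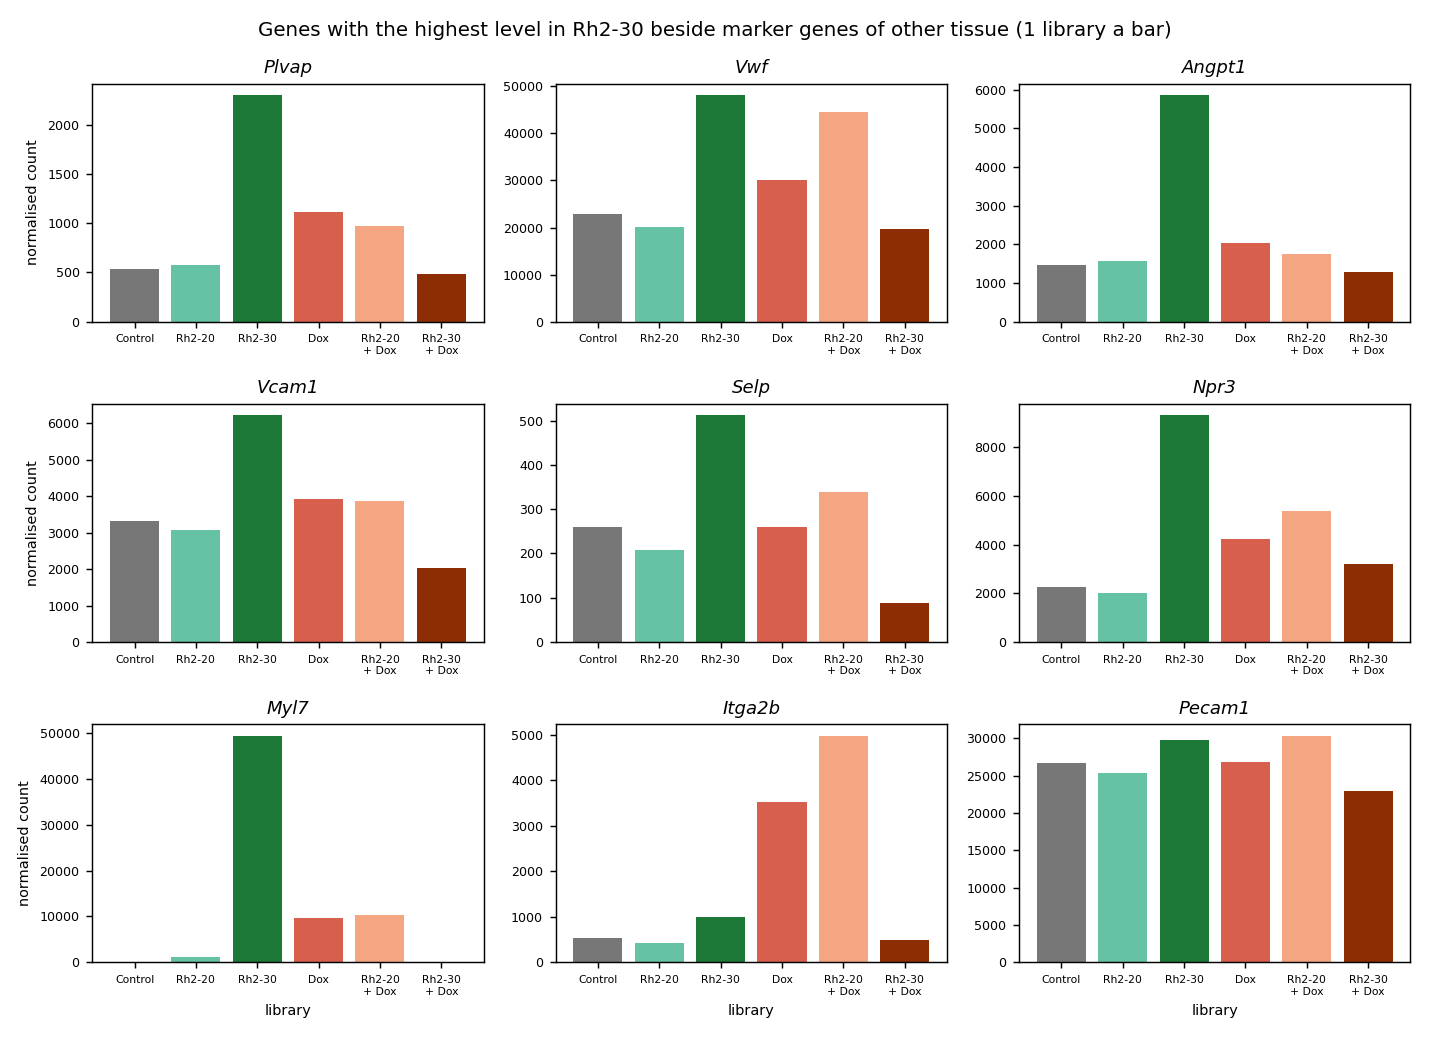
Normalised counts in each library (1 bar a library, axes from 0) for 5 members that are highest in Rh2-30, for the endocardial marker Npr3, the atrial gene Myl7 and the platelet gene Itga2b, and for Pecam1. Plvap, Angpt1 and Npr3 peak in Rh2-30 at 2300, 5861 and 9315, where Myl7 is at 49348, while Pecam1 stays between 22948 and 30310.

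The adhesion molecules that catch white blood cells were lowest in Rh2-30 + Dox, all 4 of them. That library was low across the list, with 35 of the 46 members below Control, beside 9316 of 18328 genes. Against Dox, 36 members were below, beside 9681 of all genes. The share of all genes that were lowest in this library was not counted. Sele (E-selectin), at chr1:164039614-164058487, was at 288, 181, 220, 134, 201 and 64 normalised counts. Against Control it was 2.15-fold lower in Dox and 4.46-fold lower in Rh2-30 + Dox, with counting intervals of -1.42 to -0.80 and -2.58 to -1.77 on the log2 scale. Selp (P-selectin, also stored in platelets) was at 260, 208, 512, 260, 340 and 88, and was 2.96-fold lower in Rh2-30 + Dox than in Control and 2.96-fold lower than in Dox. In Rh2-30 + Dox, Sele and Selp rested on 63 and 86 counts before scaling. Vcam1 ran from 2027 in Rh2-30 + Dox to 6211 in Rh2-30, and Icam1 from 715 to 1495 in the same 2 libraries. For neither Sele nor Selp were the Dox and other libraries apart, and the edgeR adjusted p for Dox was 0.574 and 0.792. The summed level of the 6 platelet genes was also lowest in Rh2-30 + Dox, at 13.7 CPM, and that of 6 macrophage genes ran from 251.6 to 380.5 CPM with Dox and from 314.8 to 477.9 without. Their part in the adhesion values was not tested.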

How the data were processed

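The authors pooled RNA of 5 hearts per group and sequenced 101-base reads of libraries made with a probe capture kit (SureSelect XT RNA Direct). Per the submitters' processing notes and the study's methods, bcl2fastq 2.20.0 and Trimmomatic were used, reads were aligned to mm10 with HISAT2 2.1.0, and genes were quantified with StringTie 2.1.3b on the UCSC annotation. The authors' deposited read count values are whole numbers without normalisation, the deposited FPKM values are per transcript length and mapped fragments, and the deposited TPM values sum to the same total in each library. Capture probes also bear on levels compared between genes.

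The members and lists were chosen with earlier results of these data known. All genes whose counts averaged 10 or more were tested in R 4.3.3 with edgeR 4.0.16 (TMM, quasi-likelihood test, two-sided, Benjamini-Hochberg). For Dox, all 6 libraries entered with no covariate. For Rh2, the Dox state was a term. DESeq2 1.42.0 and limma 3.58.1 on log2(FPKM + 1) were alternatives, with other scalings, filters and each library left out. Ratios of single libraries used a prior count of 0.5, exact 95% binomial counting intervals and a common dispersion of 0.0285, which also holds treatment effects. Each library is 1 pool, so p-values measure the spread between pools, treatments included, and intervals of counts cover counting error only. Functions were tested on simulated data. Values in every library were given for members called at a fold of 2, passing either test, not overlapping by Dox with a mean log2 difference of at least 0.5, or being Pecam1, Cdh5, Kdr or Vegfa. That is 14 members, and further ones were chosen after their values were seen. Plots were made in Python 3.11.15 using matplotlib 3.10.9.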

Additional observations from a re-analysis of the deposited data

Results flagged for a closer look

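The effect of 30 mg/kg Rh2 ran in opposite directions without and with Dox for 3 members whose intervals with the dispersion left out 0 on both sides, and the difference was not tested, since each effect rests on 1 library against another. The log2 ratio of Plvap was 2.11 for Rh2-30 against Control and -1.21 for Rh2-30 + Dox against Dox. For Vcam1 the same ratios were 0.90 and -0.95, and for Selp 0.98 and -1.56. Without asking for those intervals 19 of the 46 members had opposite signs, 6 of them at a size of 0.5 or more in both, the other 3 being Vwf, Angpt1 and Pdpn. The share of all genes with opposite signs was not counted, here or below, so such counts do not set the members apart.

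The effect of Dox ran in opposite directions at different Rh2 doses for 2 members by the same criterion, and this too was not tested. The log2 ratio of Plvap was 1.07 for Dox against Control and 0.76 for Rh2-20 + Dox against Rh2-20, but -2.25 for Rh2-30 + Dox against Rh2-30. The pair of 1.07 and -2.25 uses the same libraries as the Plvap pair above, so it is not a further observation. For Vwf it was 1.15 at 20 mg/kg and -1.30 at 30 mg/kg. By sign alone, 19 members differed between Control and 30 mg/kg and 19 between 20 and 30 mg/kg. At a size of 0.5 or more in both, the further ones were Nr2f2 (0.68 and -0.66) and Selp (0.70 and -2.54). For 20 mg/kg of Rh2 without and with Dox, 21 members had opposite signs, and Apln and Sele did so at that size, but for neither did both intervals leave out 0. Each of the Plvap, Vwf, Vcam1 and Selp pairs includes the Rh2-30 or the Rh2-30 + Dox library, in which the atrial genes summed to 1662 and 75.3 CPM, and the part of atrial tissue was not tested.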

How the results depend on the processing

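For members with many counts the interval with the dispersion was typically 0.67 to either side on the log2 scale, and 1.2 with edgeR's estimate that is not robust. With 1 pool a group, neither the Rh2 doses nor the combinations have a replicate, and Apln rests on as few as 10 counts, with an interval of -3.97 to -1.63 for Dox against Control. No paired analysis of replicate numbers was possible because each group holds 1 library. With the Rh2 dose as a term, 0 members passed for Dox. DESeq2's Wald test called 2 members for Dox and 2 for Rh2 where edgeR called 0, and the other alternatives called 0. The cause was not tested.

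Scaling to 6 endothelial genes raised the median log2 ratio of all genes to 0.18 in Rh2-30 + Dox against Control. With it 10 members lay above with Dox in place of 4, beside 11.7% of all genes in place of 7.85%. Under both scalings 5 members lay below, beside 5.61% of all genes in place of 9.16%. The 6 scaling genes (Pecam1, Cdh5, Tie1, Esam, Erg, Cldn5) are members, and Cdh5 and Cldn5 lay below with Dox. These counts are thus not independent of the list, and nothing is concluded from them. Leaving out 1 library gave 4 to 13 members above and 5 to 9 below, with 13 above without Rh2-30 + Dox (13.1% of all genes), 8 without Control (13.8%) and without Dox (11.8%), and 9 below without Rh2-20 + Dox and 8 without Rh2-30 (14.3% in each).

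At a fold of 1.5 the members called were 2 in Rh2-20, 9 in Rh2-30, 7 in Dox, 6 in Rh2-20 + Dox and 10 in Rh2-30 + Dox against Control, and 2 and 13 in Rh2-20 + Dox and Rh2-30 + Dox against Dox. Of all genes, 13.6%, 21.8%, 19.5%, 18.3%, 22.7%, 14.3% and 22.4% were called. On log2(FPKM + 1) there were 1 in Dox, 2 in Rh2-20 + Dox and 1 in Rh2-30 + Dox against Control, and 0 and 0 against Dox, beside 1.07%, 0.998%, 1.06%, 0.518% and 1.42% of all genes. With 0.1 added there were 5 in Rh2-30 and 2 in Rh2-20 + Dox against Control, and 0 in Rh2-20 + Dox against Dox, beside 6.61%, 4.09% and 2.47%. Asking also that the interval with the larger dispersion leave out 0, chosen after seeing the data, left 2 of the 4 in Dox, beside 4.93% of all genes. Summed FPKM of the surface and junction genes gave log2 ratios to Control of -0.084, 0.11, 0.11, 0.12 and -0.30, and summed TPM -0.088, 0.10, 0.083, 0.11 and -0.29, against -0.13, 0.17, 0.10, 0.20 and -0.25 for CPM.

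Small Dox differences changed sign. With 1 library left out in turn the ranges were -0.13 to 0.066 for Pecam1, -0.088 to 0.084 for Kdr, -0.29 to 0.56 for Vwf, -1.13 to 0.18 for Angpt1 and -0.75 to 0.64 for Plvap, the last 2 above 0 only without Rh2-30. With endothelial scaling Pecam1 went to 0.052, on FPKM Kdr to -0.012 and with the atrial level as a term, chosen after seeing the data, Vwf to -0.0097. Of 252 values of single members under the alternatives of the tests, 12 changed sign, and of 85 single ratios 0 did.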

Other observations

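Genes of other cell types were counted at an unadjusted p under 0.05, and 0 of them passed adjustment in edgeR's quasi-likelihood test for Dox or Rh2. Over all genes, 4.2% were higher and 5.91% lower with Dox at that cut, and 4.09% and 4.65% with Rh2. With Dox, all 8 proliferation genes were lower, with Mki67 at 9326, 10519, 12129, 4023, 2572 and 689 normalised counts. All 6 platelet genes were higher in the fit, but in Rh2-30 + Dox all 6 were below Control. Their summed level in that library was 13.7 CPM, the lowest of all libraries. For 0 of the 6 were the Dox libraries all above the others. Of 14 genes that endothelial cells can take up on turning mesenchymal, 0 were higher and 3 lower with Dox (Tgfb1, Tgfb2, Col1a1). Tagln was highest in the Dox library at 5350 against 1500 to 2903 in the others. Whole heart RNA does not tell which cells made these transcripts, so the count does not bear on endothelial cells alone. Of 8 mural genes 0 were higher and 1 lower, and of 6 fibroblast and 6 macrophage genes 0 were higher and 1 lower in each. Of 7 cardiomyocyte genes 1 was higher and 0 lower. Of the 4 atrial, 4 mesothelial, 3 endocardial (Plvap among them) and 2 tested lung genes, 0 were higher or lower, and of the 4 fat genes 1 was lower. With Rh2, 1 mesenchymal gene was lower, 1 mural gene was higher and 2 were lower, 1 macrophage gene was higher, 1 further lymphatic gene (Reln) was higher and 1 further arterial gene, the Notch ligand gene Jag1, was lower. Jag1, named after its values were seen, was at 8302, 6494, 6472, 9611, 7761 and 7809, below its library without Rh2 in all 4 cases.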
